A study of Mus musculus with 6 samples.

Results

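Vimentin and the genes of the contractile actin cytoskeleton were compared between YFP-positive cells without and with the adhesion protein EpCAM, sorted from pancreatic tumours of KPCY mice. The 10 genes were Vim, Nes, Acta2, Myl9, Tagln, Cnn1, Cnn2, Cald1, Tpm1 and Tpm2, taken by symbol from a table of 25978 genes. All 10 were found, and all 10 passed the filter on low values, a mean back-transformed level of at least 10. The libraries were 3 from EpCAM- cells and 3 from EpCAM+ cells, which the series calls biological replicates. Both groups came from primary tumours of mice aged 5 to 7 weeks on a C57BL/6 background, and both carried Pdx1-Cre, Trp53fl/fl and Rosa26LSL-YFP. Pdx1-Cre acts in pancreatic progenitors, so YFP marks cells of pancreatic descent and not tumour cells alone. The sources used here do not state whether animals were pooled or whether equal replicate numbers mark a shared tumour. The p-values therefore reflect the spread between these libraries alone, which may be technical.

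Vimentin is the intermediate filament protein of mesenchymal cells, and nestin is an intermediate filament protein of progenitor cells that assembles with vimentin. Smooth muscle actin, regulatory myosin light chain, transgelin, the calponins, caldesmon and the tropomyosins make up or decorate the actin filaments of smooth muscle and of the stress fibres of myofibroblasts. Many of the genes that encode them are transcribed under serum response factor (SRF) and its actin-sensing coactivators. In pancreatic tumours, vimentin is a usual marker of epithelial cells that have taken on mesenchymal features, and smooth muscle actin is a usual marker of activated fibroblasts.

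Levels are normalised log2 values as the authors deposited them, with 1 unit read here as a doubling. Because their transform is not stated in the sources used here, this reading may not hold at low levels. The levels are comparable for a gene between libraries, but not between genes, whose lengths differ. No depth of sequencing can be read from them. The sort was checked by Epcam itself, which had levels of 8.42, 8.22 and 7.22 in EpCAM- libraries, against 15.06, 14.90 and 14.89 in EpCAM+ libraries. Of 10 epithelial markers, 10 were lower in EpCAM- libraries at a limma adjusted p under 0.05, beside 23.1% of all tested genes. The summed back-transformed level of the 10 markers ran from 23664 to 47466 in EpCAM- libraries and from 340263 to 356117 in EpCAM+ libraries. In bulk samples of this kind, a difference in the number of cells of a type and a difference in RNA per cell cannot be told apart.

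Of the 10 genes, 5 rose in EpCAM- libraries, 0 fell and 5 did not pass. The genes that rose were Vim, Cald1, Nes, Tpm2 and Tpm1. Among all 15783 tested genes, 20.3% were called higher and 23.1% lower. The median log2 fold change, EpCAM- minus EpCAM+, was 1.41 over the 10 genes and 0.0043 over all tested genes. For the 5 genes that rose, every EpCAM- library lay above every EpCAM+ library, a separation that 27.1% of all tested genes showed in that direction. The 5 that did not pass were Acta2, Myl9, Tagln, Cnn1 and Cnn2, and in each of them the groups overlapped. The count of genes that rose was 3 without EpCAM+ replicate 3, 4 without EpCAM- replicate 1 or without EpCAM+ replicate 2, and 7 without EpCAM- replicate 3.

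**Figure D1:**
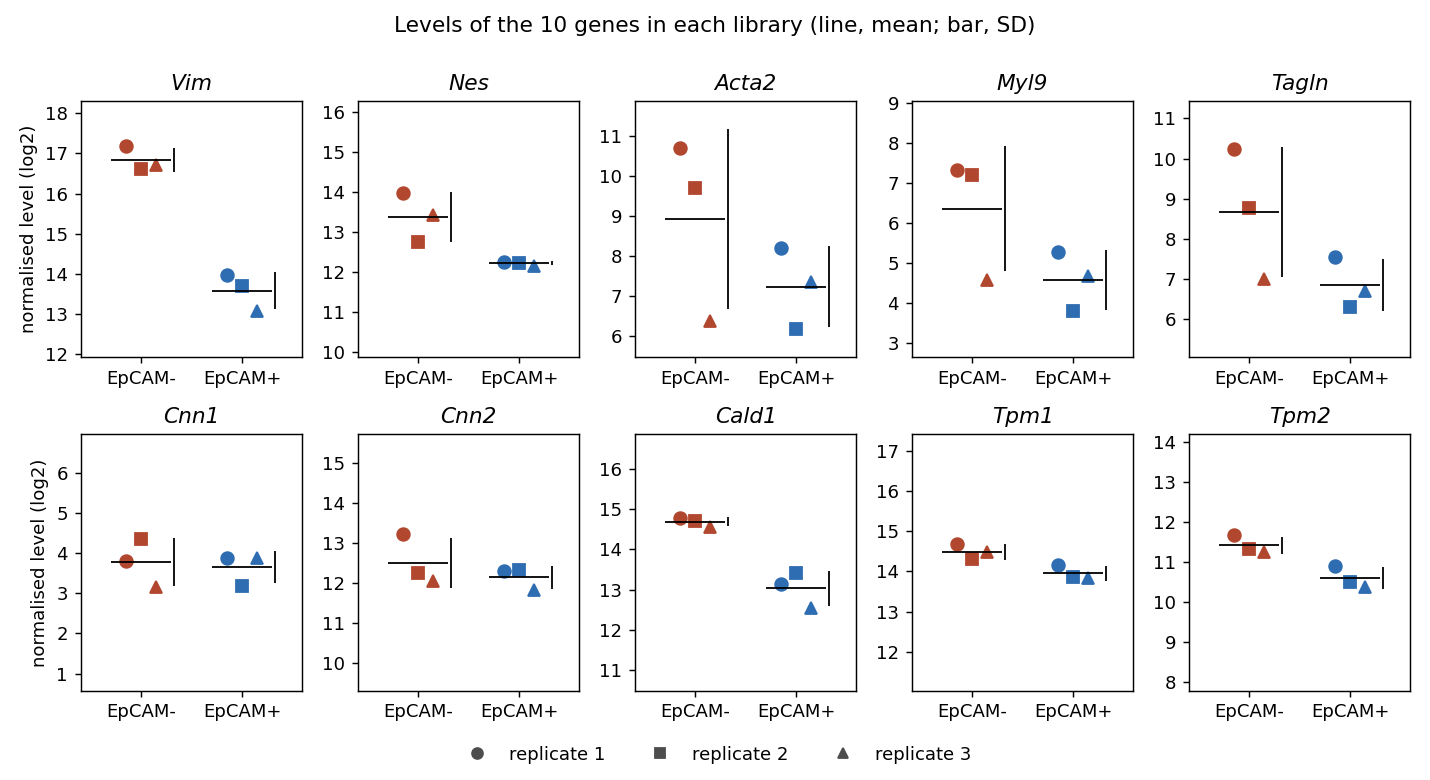
Normalised log2 level of each of the 10 genes in every library (vertical axes, each spanning the same number of log2 units), with EpCAM- libraries at the left and EpCAM+ libraries at the right of each panel. Points are libraries, with their shape giving the replicate number, horizontal lines are group means and vertical bars are SD over 3 libraries. Vim, Nes, Cald1, Tpm1 and Tpm2 show separated groups, whereas EpCAM- replicate 3 lies among the EpCAM+ libraries for Acta2, Myl9 and Tagln.

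Vim (ENSMUSG00000026728, GRCm38 chr2:13573927-13582826) had the largest change of the 10 genes. Its log2 level was 17.18, 16.61 and 16.71 in EpCAM- libraries, against 13.98, 13.70 and 13.06 in EpCAM+ libraries. The groups were far apart, and the spread within either group, 0.56 in EpCAM- and 0.92 in EpCAM+, was small beside the gap between them. The log2 fold change was 3.25 ± 0.28 (SE), or 9.51-fold, with a 95% interval of 2.58 to 3.92 and a limma adjusted p of 0.000147. Over 15 alternatives in processing, it ran from 2.99 to 3.51, and the gene passed in each. EpCAM+ libraries were not without vimentin RNA. Per kilobase of annotated exon, Vim had back-transformed levels of 31262, 21151 and 22537 in EpCAM- libraries and 3409, 2812 and 1806 in EpCAM+ libraries. In EpCAM- libraries that was above each of the other 9 genes, the next being Tpm1 with 4089, 3110 and 3524 per kilobase. That Tpm1 came next rests on the divisor, the union of annotated exons, which is 12041 bases for Cald1 and 6485 for Tpm1. Before division, Cald1 lay above Tpm1 in each EpCAM- library. In EpCAM+ libraries Vim and Tpm1, at 2836, 2296 and 2246 per kilobase, overlapped.

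The genes whose profile over the 6 libraries was closest to that of Vim, by the root mean square difference after each profile was centred on its own mean, were Hspa12b, Gchfr and Igf2bp3. Hspa12b, a distant relative of the heat shock protein chaperones, differed from Vim by 0.096 log2 units. Its levels were 9.23, 8.91 and 8.93 in EpCAM- libraries and 6.03, 5.76 and 5.21 in EpCAM+ libraries. The difference was 0.20 for Gchfr, which encodes the feedback regulator of GTP cyclohydrolase, and 0.20 for Igf2bp3, an RNA-binding protein of fetal tissues. The search covered 11524 genes with a mean back-transformed level of at least 100.

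Nes (ENSMUSG00000004891, chr3:87971078-87980451), the other intermediate filament gene among the 10, changed less than Vim. Its log2 level was 13.97, 12.74 and 13.41 in EpCAM- libraries, against 12.25, 12.23 and 12.16 in EpCAM+ libraries. The 3 EpCAM+ libraries were nearly alike, and EpCAM- replicate 2 was the closest of its group to them. Nes rose by 1.16 ± 0.29 on the log2 scale (SE, adjusted p = 0.0156). The call was lost without EpCAM+ replicate 3 (adjusted p = 0.0564), and over 15 alternatives the adjusted p ran from 0.00181 to 0.0896.

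Cald1 (ENSMUSG00000029761, chr6:34598500-34775473) encodes caldesmon, which binds actin and myosin and restrains their interaction. Its log2 level was 14.79, 14.72 and 14.57 in EpCAM- libraries, against 13.13, 13.40 and 12.55 in EpCAM+ libraries. EpCAM- libraries lay within 0.22 log2 units of each other, the narrowest range among the 10 genes in that group. Cald1 rose by 1.67 ± 0.22 on the log2 scale (SE), or 3.17-fold (adjusted p = 0.00109), and the gene passed under all 15 alternatives, with an adjusted p of at most 0.0121. GENCODE lists 18 transcripts of Cald1, and values per gene do not separate the long form of smooth muscle from the short form of other cells.

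The tropomyosin genes Tpm1 and Tpm2, whose coiled-coil proteins lie along the actin filament, rose by small amounts. Tpm2 (ENSMUSG00000028464, chr4:43514711-43523765) had log2 levels of 11.66, 11.32 and 11.24 in EpCAM- libraries, against 10.90, 10.51 and 10.37 in EpCAM+ libraries. EpCAM- replicate 3 and EpCAM+ replicate 1, the nearest libraries of the 2 groups, were 0.35 apart. Tpm2 rose by 0.82 ± 0.17 on the log2 scale (SE), or 1.76-fold (adjusted p = 0.00855), and passed under all 15 alternatives. Tpm1 (ENSMUSG00000032366, chr9:67022590-67049406) had log2 levels of 14.69, 14.30 and 14.48 in EpCAM- libraries, against 14.17, 13.86 and 13.83 in EpCAM+ libraries. Its groups were separated by 0.13 between EpCAM- replicate 2 and EpCAM+ replicate 1. Tpm1 rose by 0.54 ± 0.17 on the log2 scale (SE), or 1.45-fold (adjusted p = 0.0350). This call was lost without EpCAM- replicate 1 (adjusted p = 0.0626), EpCAM- replicate 3 (adjusted p = 0.0833), EpCAM+ replicate 2 (adjusted p = 0.108) or EpCAM+ replicate 3 (adjusted p = 0.119), and after quantile normalisation (adjusted p = 0.0603). GENCODE lists 21 transcripts of Tpm1 and 6 of Tpm2, which include muscle and non-muscle forms that values per gene do not separate.

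**Figure D2:**
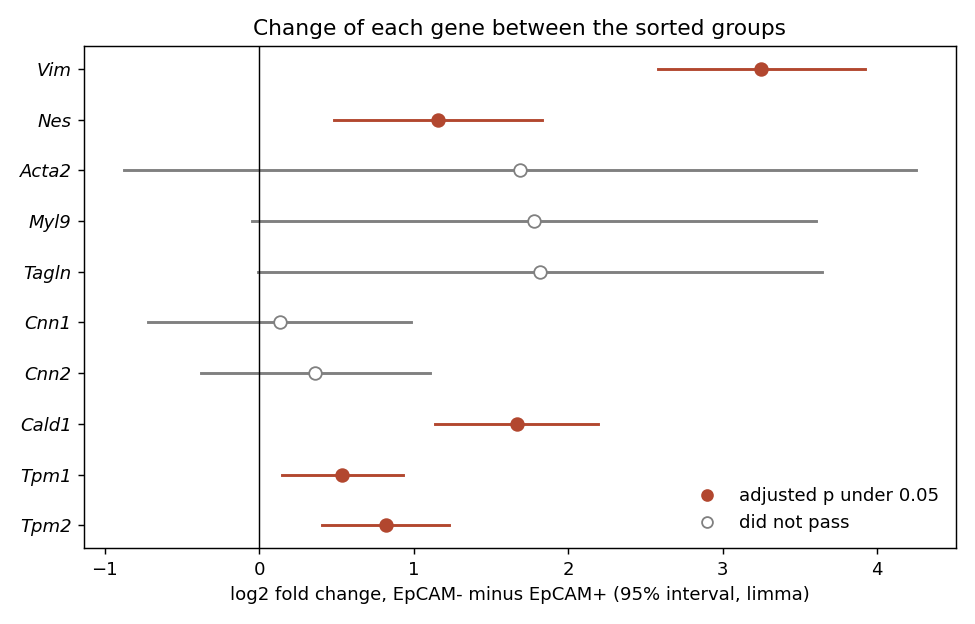
Log2 fold change, EpCAM- minus EpCAM+, of each of the 10 genes (horizontal axis) with its 95% interval from limma. Filled points passed at an adjusted p under 0.05 and open points did not. Vim stands at 3.25, and the intervals of Acta2, Myl9 and Tagln reach from just below or well below 0 to above 3.

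In Acta2, Tagln and Myl9, the genes of the 10 most often used as signs of the smooth muscle or myofibroblast state, libraries of a group lay far apart. Their SD in EpCAM- libraries was 2.25, 1.62 and 1.55, against at most 0.63 in the other 7 genes. Acta2 (ENSMUSG00000035783, chr19:34241090-34255590), which encodes smooth muscle actin, had log2 levels of 10.70, 9.69 and 6.39 in EpCAM- libraries, against 8.19, 6.18 and 7.35 in EpCAM+ libraries. EpCAM- replicates 1 and 2 lay above every EpCAM+ library, whereas EpCAM- replicate 3 lay below 2 of the 3. The log2 fold change was 1.69 ± 1.08 (SE), with a 95% interval of -0.88 to 4.25 (adjusted p = 0.249). It was 2.95 (adjusted p = 0.0115) without EpCAM- replicate 3, but 0.80 (adjusted p = 0.559) without EpCAM- replicate 1. With array weights, a fit that gives libraries unequal weight, it was 0.62 (adjusted p = 0.633). Over all tested genes, these weights were 0.37, 0.75 and 1.61 for EpCAM- replicates 1, 2 and 3. They were 1.17, 1.15 and 1.68 for the EpCAM+ libraries, so EpCAM- replicate 1, and not replicate 3, had the lowest weight. Over the 15 alternatives the adjusted p ran from 0.00576 to 0.633.

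Tagln (ENSMUSG00000032085, chr9:45929619-45936058), which encodes the actin-binding protein transgelin, had log2 levels of 10.23, 8.77 and 7.00 in EpCAM- libraries, against 7.54, 6.29 and 6.71 in EpCAM+ libraries. EpCAM- replicate 3 lay below EpCAM+ replicate 1 and above the other EpCAM+ libraries. The log2 fold change was 1.82 ± 0.77 (SE), with a 95% interval of -0.0079 to 3.64 (adjusted p = 0.0977). It was 2.65 (adjusted p = 0.0105) without EpCAM- replicate 3 and 2.08 (adjusted p = 0.0489) after quantile normalisation, but 1.03 (adjusted p = 0.208) without EpCAM- replicate 1 and 1.09 (adjusted p = 0.211) with array weights. Tagln overlaps Pcsk7, a gene of the opposite strand, and the sources used here do not state whether counting used the strand, so reads of the 2 genes may be mixed. Pcsk7 itself ran from 9.82 to 9.89 in EpCAM- libraries and from 10.01 to 10.07 in EpCAM+ libraries.

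Myl9 (ENSMUSG00000067818, chr2:156775420-156781658), which encodes a regulatory light chain of smooth muscle myosin, had log2 levels of 7.31, 7.19 and 4.57 in EpCAM- libraries, against 5.27, 3.79 and 4.67 in EpCAM+ libraries. As with Acta2, EpCAM- replicate 3 lay below 2 of the 3 EpCAM+ libraries. The log2 fold change was 1.78 ± 0.77 (SE), with a 95% interval of -0.044 to 3.61 (adjusted p = 0.103). It was 2.68 (adjusted p = 0.00513) without EpCAM- replicate 3, but 1.30 (adjusted p = 0.244) without EpCAM- replicate 1 and 1.07 (adjusted p = 0.268) with array weights. Vim and Cald1 did not share a drop of this size. In EpCAM- replicate 3, the deviation from the group mean was -0.13 log2 units for Vim and -0.12 for Cald1, whereas it was -2.53 for Acta2, -1.79 for Myl9 and -1.67 for Tagln.

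Markers of fibroblasts shared part of the order of libraries seen in Acta2, Tagln and Myl9. Of 14 fibroblast markers, 13 were tested. In EpCAM- libraries, 10 of them were higher and 1 was lower. That is 76.9% and 7.69%, beside 20.3% and 23.1% of all tested genes. The 10 included Dpt, named after its values were seen, whose EpCAM+ levels of 4.08, 2.74 and 2.38 alone would not have passed the filter. The mean log2 level over the tested markers was 10.60, 10.86 and 8.79 in EpCAM- libraries and 8.09, 5.75 and 6.14 in EpCAM+ libraries. The summed back-transformed level of all 14 ran from 39205 to 175152 in EpCAM- libraries and from 1997 to 15226 in EpCAM+ libraries. The highest EpCAM- library differed, being replicate 2 for the markers and replicate 1 for the 3 genes. In both the markers and the 3 genes, replicate 3 was the lowest EpCAM- library, replicate 1 the highest EpCAM+ library and replicate 2 the lowest EpCAM+ library. The part of these markers in the levels of Acta2, Tagln and Myl9 was not tested.

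By mean log2 level, pericyte and macrophage markers had this order of libraries too, whereas smooth muscle, striated muscle, endothelial, glial and epithelial markers did not have all of it. The mean log2 level of the tested pericyte markers was 7.49, 7.60 and 7.29 in EpCAM- libraries and 7.13, 6.28 and 6.86 in EpCAM+ libraries. That of macrophage markers, which were lower in EpCAM- libraries, was 5.67, 5.85 and 5.14 in EpCAM- libraries and 9.05, 7.00 and 7.76 in EpCAM+ libraries. The summed level of pericyte markers had another order, with 2582, 3421 and 2738 in EpCAM- libraries and 3166, 2666 and 4683 in EpCAM+ libraries.

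Of 12 smooth muscle markers, 7 were tested, 2 were higher and 0 lower. That is 28.6% higher and 0% lower, beside 20.3% and 23.1% of all tested genes. Nothing particular to the list is read from these shares. The tested markers averaged log2 levels of 6.95, 6.06 and 5.63 in EpCAM- libraries and 5.41, 4.77 and 4.76 in EpCAM+ libraries, so that replicate 3 was the lowest EpCAM- library and replicate 1 the highest EpCAM+ library, as for Acta2. The summed level of all 12 was 4420, 5114 and 5810 in EpCAM- libraries and 1783, 2615 and 1549 in EpCAM+ libraries, and Smtn made up 84.9% to 94.3% of the sum in EpCAM- libraries and 82.6% to 87.8% in EpCAM+ libraries. The members that rose were Smtn and Synpo2, named after their values were seen. Smtn, which encodes the actin-associated protein smoothelin, had levels of 11.87, 12.20 and 12.42 in EpCAM- libraries, against 10.52, 11.17 and 10.36 in EpCAM+ libraries. The smooth muscle myosin gene Myh11 had levels of 3.98, 3.18 and 3.15 in EpCAM- libraries and 3.57, 2.86 and 3.45 in EpCAM+ libraries, and did not pass (adjusted p = 0.746). Des, the muscle intermediate filament desmin, stood at 6.98 in EpCAM- replicate 1 and at 3.98 and 4.08 in the other EpCAM- libraries, against 4.58, 2.86 and 3.04 in EpCAM+ libraries. Actg2, the enteric smooth muscle actin, was likewise highest in EpCAM- replicate 1, with 6.50, 3.34 and 3.73 in EpCAM- libraries and 3.996, 2.26 and 2.73 in EpCAM+ libraries. Itga8, an integrin subunit named after its values were seen, had levels of 5.79, 5.78 and 3.06 in EpCAM- libraries and 3.48, 2.61 and 2.84 in EpCAM+ libraries, and did not pass (adjusted p = 0.0750).

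Of 10 pericyte markers, 8 were tested, 3 were higher and 3 lower. That is 37.5% and 37.5%, beside 20.3% and 23.1% of all tested genes. Shares in brackets below, higher and then lower, stand beside the same background. Summed levels of the pericyte markers overlapped between the groups. The pericyte markers that were higher, named after their values were seen, were Pdgfrb (log2 fold change 4.13, adjusted p = 0.00671), which fibroblasts also express, Cspg4 (2.53, adjusted p = 0.00105) and Cox4i2 (1.65, adjusted p = 0.00451). Cox4i2 had levels of 4.53, 5.27 and 4.92 in EpCAM- libraries, against 3.60, 3.38 and 2.78 in EpCAM+ libraries. On its EpCAM+ levels alone it would not have passed the filter. Rgs5, a G protein regulator of pericytes, was lower in EpCAM- libraries, at 9.22, 8.79 and 10.44 against 10.71, 10.75 and 11.66 in EpCAM+ libraries (log2 fold change -1.56, adjusted p = 0.0282). Also lower, and named after their values were seen, were Rgs4 (-1.57, adjusted p = 0.0393) and Notch3 (-1.18, adjusted p = 0.0186). Endothelial markers had a summed level of 211 to 216 in EpCAM- libraries and 148 to 183 in EpCAM+ libraries. Of 5 tested, 1 was higher and 1 lower (20% and 20%), close to the background. Pecam1 did not pass (adjusted p = 0.353). Of 11 macrophage markers, 0 were higher and 10 lower (0% and 90.9%), with sums of 996 to 1224 in EpCAM- libraries and 4457 to 10843 in EpCAM+ libraries. Cd14, named after its values were seen, made up 23.5% to 29.9% of the sum in EpCAM- libraries and 39.1% to 69.2% in EpCAM+ libraries. The pan-leukocyte gene Ptprc was among the macrophage markers that were lower, at 4.71, 4.72 and 3.67 in EpCAM- libraries and 7.63, 5.51 and 5.93 in EpCAM+ libraries. Of 7 glial markers in the table, 4 were tested, and 0 were higher and 3 lower (0% and 75%). The 7 had sums of 747 to 1049 in EpCAM- libraries and 9291 to 10201 in EpCAM+ libraries. Erbb3, named after its values were seen, made up 10.7% to 30.2% of the sum in EpCAM- libraries and 66.5% to 71.6% in EpCAM+ libraries. The defining glial factor Sox10 did not pass the filter, with levels of at most 0.29. Of 8 striated muscle markers, 2 were tested and neither passed, with sums of 32.9 to 36.9 in EpCAM- libraries and 34.2 to 42.3 in EpCAM+ libraries. The part of these markers in the levels of the 10 genes was not tested.

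**Figure D3:**
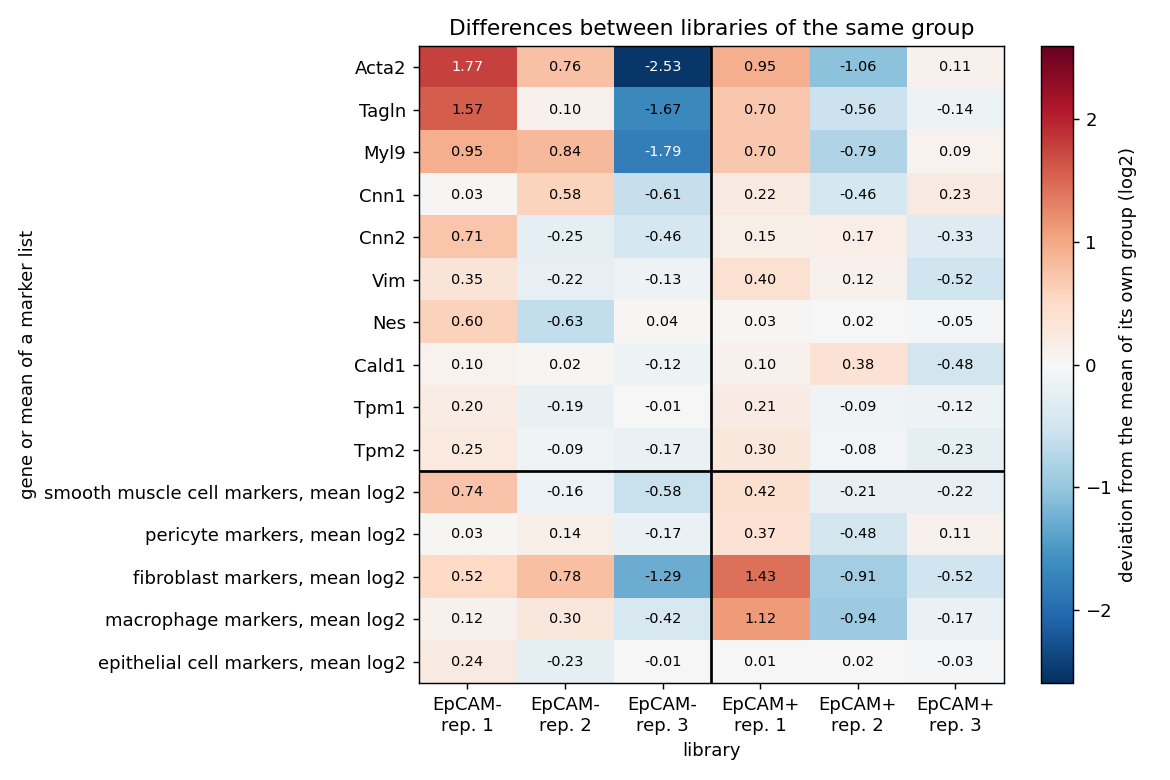
Deviation of each library from the mean of its own group, on the log2 scale, for the 10 genes (upper rows) and for the mean of the tested markers of 5 cell types (lower rows). EpCAM- libraries are at the left and EpCAM+ libraries at the right. Acta2, Tagln, Myl9 and Tpm2 are lowest in EpCAM- replicate 3 and highest in EpCAM+ replicate 1 among libraries of their group. So are the fibroblast, smooth muscle, pericyte and macrophage markers, but not the epithelial markers. Vim, Cald1, Tpm1 and Tpm2 deviate by at most 0.52.

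Genes closest in profile to Acta2 were Igf2, Sdk2 and Acpp. The fetal growth factor gene Igf2 differed from Acta2 by a root mean square of 0.49 log2 units, with levels of 13.997, 13.32 and 10.33 in EpCAM- libraries and 11.64, 9.36 and 9.69 in EpCAM+ libraries. The difference was 0.57 for Sdk2, an adhesion protein of the immunoglobulin superfamily, and 0.61 for Acpp, which encodes prostatic acid phosphatase. The match was looser than for Vim, whose closest gene differed by 0.096.

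The calponins Cnn1 and Cnn2, which bind actin and slow the myosin motor, gave no call. Cnn1 (ENSMUSG00000001349, chr9:22099216-22109630), the calponin of smooth muscle, had log2 levels of 3.81, 4.36 and 3.17 in EpCAM- libraries, against 3.87, 3.19 and 3.88 in EpCAM+ libraries. The groups overlapped throughout, and with a mean back-transformed level of 13.7 Cnn1 lay close to the filter of 10. Its log2 fold change was 0.13 ± 0.36 (SE, adjusted p = 0.792), and the sign turned without EpCAM- replicate 2 or EpCAM+ replicate 2 and with array weights. Per kilobase of exon it was the lowest of the 10 genes in every library, at 3.30 to 7.52 in EpCAM- libraries and 3.33 to 5.39 in EpCAM+ libraries. Cnn2 (ENSMUSG00000004665, chr10:79988584-79996062), the calponin of non-muscle cells, had log2 levels of 13.22, 12.25 and 12.05 in EpCAM- libraries, against 12.30, 12.32 and 11.82 in EpCAM+ libraries. EpCAM- replicate 1 was the highest, and the other libraries of both groups were interleaved. The log2 fold change was 0.36 ± 0.31 (SE), with a 95% interval of -0.38 to 1.10 (adjusted p = 0.383).

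Sequences before the transcription starts of these genes were searched for the CArG box, the SRF binding motif, because Acta2, Tagln and Myl9 varied together. RefSeq (GRCm38.p6) gave promoters for 9 of the 10 genes, Tagln being the gene with no entry. The starts are those of RefSeq, whereas the gene spans given above are those of GENCODE and can begin elsewhere. The 250 bases searched for Vim, and both Acta2 matches below, lie within the spans given for these genes. A CArG box with no mismatch lay within the 250 bases before the start in 2 of these genes, Myl9 and Cnn2, of which neither was called. Of all 32851 promoters searched, 1.47% held such a box. The motif reads alike on both strands. With 1 mismatch allowed, 18.6% of all promoters and 5 of the 9 genes had a match, the others being Acta2, Tpm1 and Cald1. Vim, Nes, Tpm2 and Cnn1 had none in this window. Shown are the boxes of Myl9 and Cnn2, and both matches of Acta2, each of which has 1 mismatch, with the 10 bases of the match in capitals and 10 bases on each side, written 5′ to 3′ along the gene.
Myl9 box, 161 bases before the start, chr2:156775293-156775322 (+ strand): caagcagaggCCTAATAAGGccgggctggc
Cnn2 box, 56 bases before the start, chr10:79988534-79988563 (+ strand): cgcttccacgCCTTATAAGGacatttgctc
Acta2 upstream match, 84 bases before the start, chr19:34255438-34255467 (- strand): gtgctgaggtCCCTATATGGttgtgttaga
Acta2 downstream match, 34 bases before the start, chr19:34255388-34255417 (- strand): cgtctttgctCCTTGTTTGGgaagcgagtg
A match describes these letters and is not evidence of binding.

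Of 19 tested SRF factors and other cytoskeletal genes under SRF, 6 rose, 3 fell and 10 did not pass, with a median log2 fold change of -0.046. That is 31.6% higher and 15.8% lower, beside 20.3% and 23.1% of all tested genes, and nothing particular to the list is read from these shares. The members with the largest changes were the focal adhesion scaffold Tgfb1i1 (2.06 ± 0.49, SE), the fibronectin receptor subunit Itga5 (1.73 ± 0.13, SE), the matricellular gene Ccn2 (-1.67 ± 0.40, SE) and the actin-bundling gene Lima1 (-1.12 ± 0.19, SE). Tgfb1i1 had log2 levels of 10.42, 9.39 and 8.84 in EpCAM- libraries, against 8.11, 6.69 and 7.68 in EpCAM+ libraries, so that its lowest EpCAM- library was also replicate 3. Itga5 was instead highest in EpCAM- replicate 3, with 13.63, 13.89 and 13.93 in EpCAM- libraries. The actin crosslinker Flna (0.52, adjusted p = 0.0822), the crosslinker Actn1 (-0.27, adjusted p = 0.205) and Ccn1 (-0.32, adjusted p = 0.430) did not pass. Srf itself fell (-0.70, adjusted p = 0.0104) and its coactivator gene Mrtfa rose (0.45, adjusted p = 0.0136), both named after their values were seen. Without EpCAM+ replicate 3, 3 genes of the list rose.

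Actin isoforms and paralogues of the 10 genes mostly did not pass. Of 12 tested, 2 rose, 1 fell and 9 did not pass, with a median log2 fold change of 0.049, so 16.7% were higher and 8.33% lower, beside 20.3% and 23.1% of all tested genes. The third calponin, Cnn3, rose by 0.98 ± 0.11 (SE, adjusted p = 0.000522), with log2 levels of 13.43, 13.41 and 13.28 in EpCAM- libraries, against 12.44, 12.48 and 12.25 in EpCAM+ libraries. The essential light chain gene Myl6b rose by 0.88 ± 0.17 (SE), and the non-muscle regulatory light chain gene Myl12b had -0.75 ± 0.11 (SE). The cytoplasmic actins Actb (-0.31, adjusted p = 0.319) and Actg1 (-0.47, adjusted p = 0.226) and the tropomyosin Tpm4 (0.29, adjusted p = 0.279) did not pass. Myl12b fell alone in this list, except without EpCAM- replicate 1, when 2 genes fell.

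Intermediate filament genes outside the keratins included larger changes than that of Vim. Of 11 tested, 5 rose, 3 fell and 3 did not pass, with a median log2 fold change of 0.88. That is 45.5% higher and 27.3% lower, beside 20.3% and 23.1% of all tested genes. The list also holds Plec, named after its values were seen, which encodes plectin, a linker of intermediate filaments and not a filament protein. Plec was among the 5 that rose (0.88, adjusted p = 0.00786), and the median of the list is its value. The neurofilament gene Nefm rose by 5.22 ± 0.31 (SE, adjusted p = 2.57e-05), with log2 levels of 10.46, 10.07 and 10.19 in EpCAM- libraries, against 5.67, 4.49 and 4.89 in EpCAM+ libraries. Nefl rose by 4.58 ± 0.59 (SE), and Nefh, the heavy neurofilament chain, fell by 1.84 on the log2 scale. Nefh had low levels, 3.155, 3.44 and 3.39 in EpCAM- libraries against 5.08, 5.06 and 5.35 in EpCAM+ libraries. The unstated transform may affect its change, and it was not tested with the filter at a mean of 50. Lmna, which encodes the nuclear lamins A and C, rose by 1.13 ± 0.26 (SE). Des (1.52, adjusted p = 0.200), Synm (0.46, adjusted p = 0.180) and Ina (-0.052, adjusted p = 0.881) did not pass. Prph, named after its values were seen, was among the 5 that rose, with levels of 3.41, 4.17 and 4.57 in EpCAM- libraries. Its EpCAM+ levels, 2.74, 3.04 and 3.14, lay below the filter, which it passed through its EpCAM- levels alone. The number that rose was 3 without EpCAM+ replicate 3. With the filter at a mean of 50, 4 rose and 2 fell.

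Of 9 tested genes that transforming growth factor beta is known to induce, 3 rose, 2 fell and 4 did not pass, with a median log2 fold change of 0.56. The shares, 33.3% higher and 22.2% lower, stand beside 20.3% and 23.1% of all tested genes, and the share that fell is close to that background. The matrix protein gene Tgfbi rose by 4.59 ± 0.60 (SE) and the collagen crosslinking oxidase Lox by 3.93 ± 0.35 (SE). Lox had log2 levels of 11.54, 11.42 and 11.44 in EpCAM- libraries, against 8.32, 6.79 and 7.49 in EpCAM+ libraries, so its 3 EpCAM- libraries were alike where those of Acta2 were not. Fn1 (0.93, adjusted p = 0.196), Skil (-0.30, adjusted p = 0.170) and Smad7 (0.44, adjusted p = 0.0927) did not pass. Tgfb1i1 and Ccn2 stand in this list and in that of SRF genes, and the number that fell was 1 without EpCAM+ replicate 1.

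**Figure D4:**
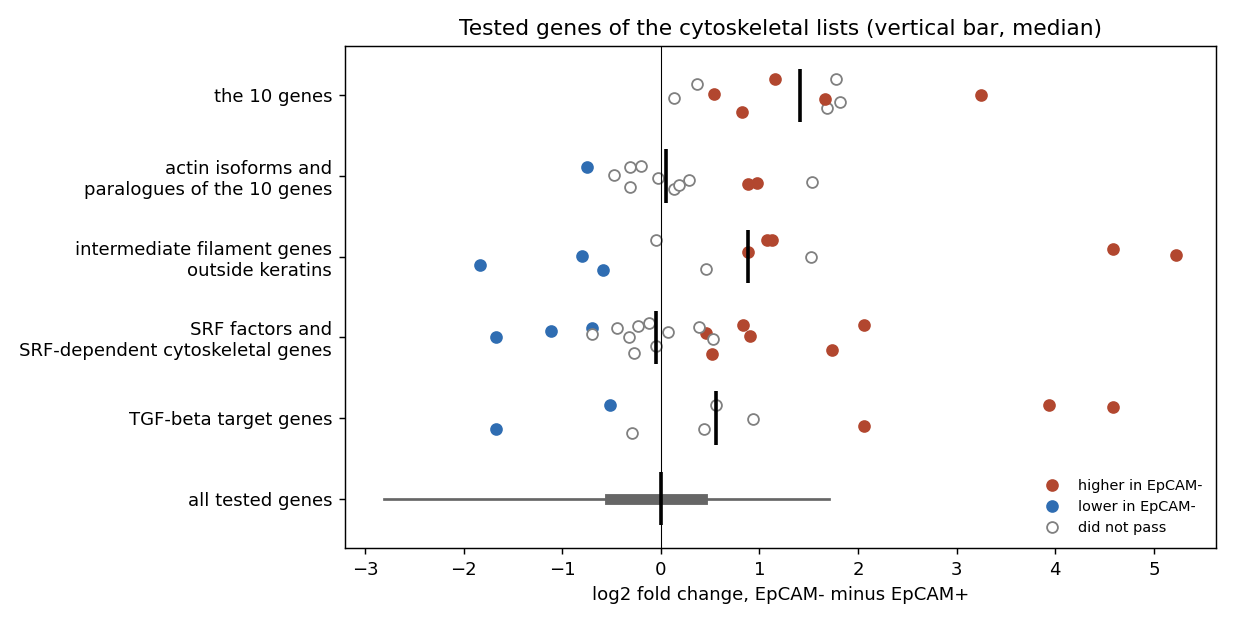
Log2 fold change, EpCAM- minus EpCAM+ (horizontal axis), of each tested gene in the set of 10 genes and in 4 cytoskeletal or signalling lists, with filled red points higher and filled blue points lower in EpCAM- at an adjusted p under 0.05, and open points not passed. Vertical bars are medians, and the lowest row gives the 5% to 95% range (line) and the 25% to 75% range (thick bar) over all tested genes, whose median was 0.0043. The set of 10 genes has no value below 0, and the other lists have points on both sides.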

How the data were processed

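RNA from 6 libraries, 3 per sorted group, was analysed from 1 deposited table. Per the labels' protocols, the KAPA mRNA HyperPrep kit was used. The submitters' processing notes name DESeq2 1.24.0, RSEM, STAR 2.5.2 and the build GRCm38, without saying what each was used for. Each deposited value is a log2 level that the authors had normalised by a transform not stated in the sources used here, and depth is unknown. The median SD over 6 libraries was 0.0625 for genes with a mean under 0 and 0.594 for means of 4 to 6. Fold changes of genes at low levels, such as Cnn1, may be affected by the unstated transform.

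The values were tested with limma 3.58.1 in R 4.3.3 (trend, no covariate, two-sided, Benjamini-Hochberg over 15783 genes with a mean back-transformed level of at least 10, threshold 0.05). An exact permutation test of 3 against 3 cannot go below 0.1, so none was run. The fit was tested on simulated data. Symbols came from GENCODE M21, which named 25831 identifiers and left 147 without a symbol. Levels per kilobase used the union of annotated exons.

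All members are named. From each cytoskeletal or signalling list, up to 4 called genes with the largest change and 3 uncalled genes with the highest level were named, and of the marker lists Myh11, Des, Actg2, Rgs5, Pecam1, Ptprc and Sox10. An allele of the genotype, and a list and a gene of another list, are not reported here. The members, lists and rules were chosen with earlier results of these data known. Alternatives were no filter, a filter at 50, upper quartile scaling, quantile normalisation, pseudocounts of 1 and 5, the replicate number as a block, array weights, and left-out libraries.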

Additional observations from a re-analysis of the deposited data

How the results depend on the processing

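Over 15 alternatives, Vim, Cald1 and Tpm2 passed in all, Cnn2 in none, and Cnn1 in none of the 14 in which it was tested. Nes lost its call in 2 and Tpm1 in 6, while Acta2 and Myl9 gained one in 2 and Tagln in 4. Without EpCAM- replicate 3 and EpCAM+ replicate 1 together, a setting chosen with earlier results known, the log2 fold change was 3.43 for Acta2, 3.02 for Myl9 and 3.00 for Tagln, all 3 passing. It was 0.80 for Acta2, 1.30 for Myl9 and 1.03 for Tagln without EpCAM- replicate 1, and 0.62 for Acta2, 1.07 for Myl9 and 1.09 for Tagln with array weights, none passing. Cnn1 had -0.095 with array weights, -0.16 without EpCAM- replicate 2 and -0.096 without EpCAM+ replicate 2, within a range of -0.16 to 0.55 when libraries were left out. In the joint setting, 1907 of all tested genes were higher, and 3 genes of the intermediate filament list rose and 1 fell. Of the other lists there, 3 SRF genes rose and 1 fell, and 0 genes of the transforming growth factor beta list fell. With array weights, 5 SRF genes fell. With each library left out in turn, 2134 to 3325 of all tested genes were higher, and 3 to 7 of the 10 genes rose and 0 fell. Likewise, 1 to 2 paralogues fell, and 3 to 5 genes of the intermediate filament list rose. Between 3 and 7 SRF genes rose, and 1 to 2 genes of the transforming growth factor beta list fell. Where a library was left out, fewer samples entered the fit; other causes were not tested. Quantile normalisation moved the median of all genes to 0.14.

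With the replicate block, 6 of the 10 genes rose, Tagln being added (adjusted p = 0.0311). Deviations of same-numbered libraries correlated at 0.41, 0.044 and 0.16 across genes for replicates 1, 2 and 3, and not every library correlated best with its own number, so the numbers were not taken to pair the libraries. Depth is unknown, and Cnn1 lay close to the filter on low values.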
